A study of Mus musculus with 24 samples.

Results

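The genes described here are 39 genes of the hepatocyte, the main cell of the liver, given as a list of names with no threshold on a measured value, out of 22282 genes in the series. The list was drawn up with earlier results of these data known. They were followed through 24 mouse RNA-seq libraries, 3 in each of 8 groups, all from C57BL/6J cells. LSECs are liver ECs that were labelled in the living animal and sorted directly by FACS, so they were never cultured. Akt-liver ECs and Akt-LECs are ECs of liver and lung that were pulled down on anti-CD31 beads, transduced with a lentivirus for constitutively active myristoylated Akt, sorted again and cultured. MACs are cultured amniotic cells of embryos at E11.5 to E13.5, where each culture came from the mixed embryos of a litter, and Akt-MACs carry the Akt lentivirus as well. RACVECs are amniotic cells converted with lentiviral Etv2, Erg and Fli1 in endothelial medium with a TGF-beta inhibitor and VEGF-A. Akt-RACVECs and Sox17-RACVECs carry, in addition to the same Ets factors, either the Akt molecule or mouse Sox17. MACs were prepared in an amniotic cell medium, so in RACVECs against MACs the factors and the medium cannot be told apart. No group of hepatocytes was sequenced, so every value below is a level in a library of another labelled cell type, and which cells the RNA came from was not tested.

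Hepatocytes make most of the proteins of blood plasma. They secrete albumin and other carriers, the apolipoproteins that form lipoprotein particles, fibrinogen and other clotting proteins, and inhibitors of plasma proteases. They also clear ammonia through the urea cycle, make glucose from amino acids and oxidize drugs with cytochrome P450 enzymes, and these tasks are divided along the liver lobule between cells near the portal vein (periportal) and cells near the central vein (pericentral). The 39 genes were therefore grouped by role into 9 plasma transport and binding proteins (Alb, Ambp, Ttr, Rbp4, Trf, Hp, Hpx, Ahsg, Vtn), 6 apolipoproteins (Apoa1, Apoa2, Apob, Apoc1, Apoc3, Apoh) and 6 clotting proteins (Fga, Fgb, Fgg, F2, Kng1, Serpinc1). The other groups were 5 protease inhibitors and inter-alpha-trypsin inhibitor chains (Itih1, Itih3, Itih4, Serpina1a, Serpina3k), 4 enzymes of ammonia and arginine (Cps1, Ass1, Arg1, Glul), 4 gluconeogenic and amino acid enzymes (Pck1, Tat, Tdo2, Hpd), 4 P450 enzymes (Cyp2e1, Cyp3a11, Cyp1a2, Cyp2c29) and the fatty acid binding protein Fabp1.

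Levels are FPKM, fragments per kilobase of transcript scaled to the library, and since FPKM is per length, levels can be set side by side between genes. The summed FPKM of a library ranged from 1689486 to 2317294, and between 12356 and 14985 genes were above 0. Numbers of reads were not used here, so the depth is unknown and a value of 0 sets no limit of detection. The LSEC libraries carried the markers of their label, with 14 of 14 liver sinusoidal EC markers above 0 in each and a summed FPKM from 63380 to 76753. They also held all 10 Kupffer cell markers, with a summed FPKM of 24723, 22224 and 14468 in LSEC 1, 2 and 3, and 6 to 8 of 8 red blood cell markers, with a sum from 35352 to 39510.

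The hepatocyte genes were read in LSECs at levels from 6.34 to 7975 FPKM, and little or nothing of most of them was read elsewhere. All 39 were above 0 in each of the 3 LSEC libraries, and 33 of the 39 were higher in each LSEC library than in any of the 21 other libraries. How many of all genes were so was not counted. Against Akt-liver ECs alone, 36 of the 39 were higher without overlap, and so were 3733 of the 14964 genes with a mean of at least 1 FPKM. The summed FPKM of the 39 was 0.556%, 0.495% and 1.51% of the library in LSEC 1, 2 and 3, a mean of 0.855% ± 0.572 (SD, n = 3). In Akt-liver ECs the share was 0.0624%, 0.0155% and 0.0176%, a mean of 0.0318% ± 0.0265 (SD, n = 3), so no LSEC library overlapped with the cultured liver ECs. The exact two-sided permutation test of the LSEC share against that of Akt-liver ECs gave p = 0.1, which is the smallest p that 3 libraries against 3 allow. In bulk samples, fewer cells of a type and less RNA per cell cannot be told apart.

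**Figure D1:**
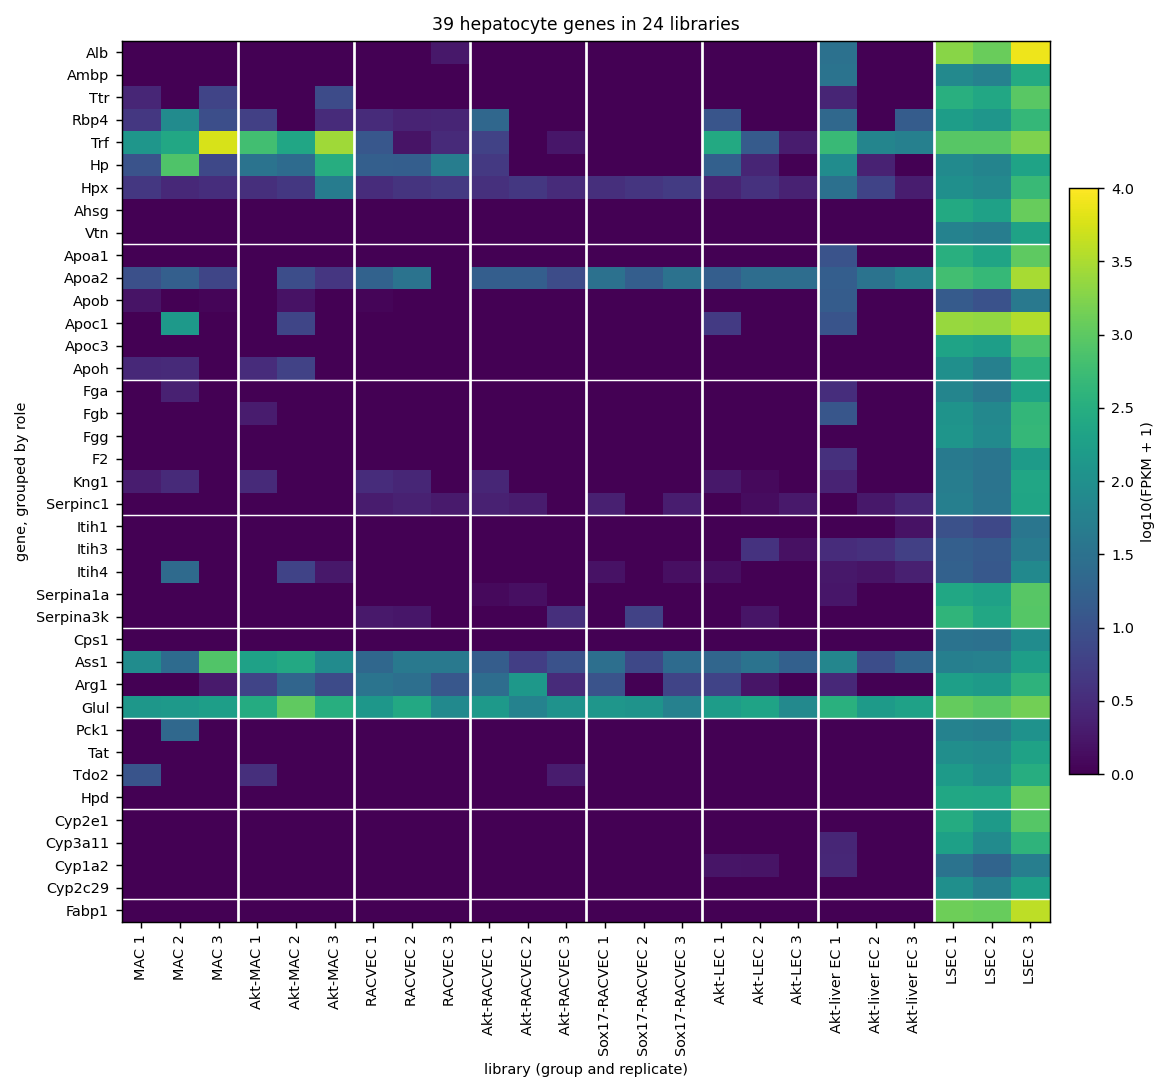
Heat map of log10(FPKM + 1) for the 39 hepatocyte genes (rows, grouped by role between the white horizontal lines) in 24 libraries (columns, 3 per group between the white vertical lines). The 3 LSEC columns are filled for all 39 genes, whereas outside LSECs the filled cells are mainly those of Trf, Ass1, Glul, Hp, Hpx and Apoa2 and a column of low values in Akt-liver EC 1.

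Albumin (Alb), the most abundant plasma protein and the carrier of fatty acids and hormones, had the highest mean of the 39, with 1951, 1211 and 7975 FPKM in LSEC 1, 2 and 3. Outside LSECs it was listed at 0 in all but 2 libraries, Akt-liver EC 1 with 30.3 FPKM and RACVEC 3 with 0.82 FPKM. Alb ranked 51 among all genes of LSECs by mean FPKM. Of the 39 genes, 2 were among the 100 highest genes of LSECs and 6 were among the 500 highest.

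The other of those 2 was Apoc1, a small apolipoprotein that macrophages also make, with 2446, 2244 and 3431 FPKM. Fabp1, which carries fatty acids in the hepatocyte cytosol, had 1298, 1173 and 4061 FPKM and was listed at 0 in all 21 other libraries. Apoa2, a protein of high-density lipoprotein, had 615, 485 and 3005 FPKM. Trf, the iron carrier transferrin, had 928, 915 and 1669 FPKM, and Glul, the glutamine synthetase of pericentral hepatocytes and of many other cells, had 1153, 935 and 1392 FPKM. These 6 genes were the ones with a mean of at least 1000 FPKM in LSECs, and 30 of the 39 had a mean of at least 100.

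Large secreted proteins were among the genes at the low end. Itih1, a heavy chain that is linked to hyaluronan, had 8.74, 6.34 and 36.0 FPKM, and Apob, the structural protein of very-low-density lipoprotein, had 13.0, 9.21 and 40.3 FPKM. Itih3 and Itih4, chains of the same family as Itih1, had 12.6 to 44.4 FPKM and 11.6 to 78.8 FPKM. Among the enzymes, Cyp1a2 had 18.6 to 49.9 FPKM and Cps1, which fixes ammonia in the mitochondria as the entry to the urea cycle, had 29.6 to 85.7 FPKM.

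Between these ends lay the rest of the plasma proteins. Ahsg (fetuin-A), an inhibitor of calcification, had 263, 195 and 1190 FPKM in LSEC 1, 2 and 3 and was listed at 0 elsewhere, as was Vtn (vitronectin, 58.5, 48.3 and 202 FPKM). Ttr, which carries thyroid hormone and the retinol complex, had 338, 253 and 947 FPKM and at most 7.33 FPKM in any other library. Of the apolipoproteins, Apoa1, the main protein of high-density lipoprotein, had 338, 218 and 1014 FPKM, Apoc3, an inhibitor of lipoprotein lipase, had 210, 171 and 738 FPKM, and Apoh had 96.1, 54.8 and 373 FPKM.

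The clotting genes were of like size. The fibrinogen chains had 64.6, 41.0 and 206 FPKM (Fga), 112, 73.9 and 443 FPKM (Fgb) and 121, 80.2 and 466 FPKM (Fgg). Prothrombin (F2) had 44.3, 34.7 and 158 FPKM, Kng1 (kininogen) 49.3, 33.1 and 229 FPKM and Serpinc1 (antithrombin) 52.1, 35.3 and 224 FPKM. Outside LSECs, Fgb reached 10.9 FPKM in Akt-liver EC 1 and the other 5 stayed at or below 2.62 FPKM, although Kng1 was above 0 in 9 of the 21 libraries and Serpinc1 in 11. Of the secreted serpins, Serpina1a (alpha-1-antitrypsin) had 243, 191 and 899 FPKM and Serpina3k had 417, 252 and 886 FPKM.

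The enzymes had a similar span. Hpd had 245, 231 and 1145 FPKM, Tdo2, which opens the ring of tryptophan, had 149, 101 and 307 FPKM, and Tat, the tyrosine aminotransferase, had 92.9, 83.9 and 204 FPKM. Pck1 had 58.8, 52.3 and 110 FPKM. Arg1 had 178, 152 and 386 FPKM, which is above its level in every other library. Of the P450 enzymes, Cyp3a11 had 187, 85.0 and 400 FPKM and Cyp2c29 had 98.8, 51.5 and 179 FPKM. In every one of these genes LSEC 3 was the highest library and LSEC 2 the lowest.

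Several of these genes lie next to each other in the mouse genome, here with positions of GENCODE M1 on mm9. Fgg (chr3:82811781-82818975), Fga (chr3:82830075-82838036) and Fgb (chr3:82846169-82853725), which encode the 3 chains of fibrinogen, are 11.1 kb and 8.13 kb apart. Itih4 (chr14:31699662-31715167), Itih3 (chr14:31721759-31736946) and Itih1 (chr14:31742366-31756475) are 6.59 kb and 5.42 kb apart. Apoa1 (chr9:46036663-46038549) and Apoc3 (chr9:46041016-46043719) are 2.47 kb apart and lie on opposite strands. Alb lies at chr5:90889915-90905629 and Glul at chr1:155747074-155756853. Serpina1a, Serpina3k, Cyp2c29, Cyp3a11 and Kng1 have near-identical copies in the mouse genome, so their FPKM may include reads of a copy and are uncertain.

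Promoters are shown for 3 genes whose levels moved together over the LSEC libraries and, for contrast, for Glul, which moved least among the 39. RefSeq promoters of GRCm38.p6 were at hand for 30 of the 39 genes, and the 250 bases before the annotated start were searched on both strands. A motif of the C/EBP factors, a family of leucine zipper proteins that hepatocytes and fat cells use, was searched as TTGCNNAA, or TTNNGCAA on the other strand, and stands in capitals. The sequences are those of Alb (chr5:90460620-90460869, plus strand), Fgb (chr3:83049864-83050113, minus strand), Hpx (chr7:105600117-105600366, minus strand) and Glul (chr1:153899679-153899928, plus strand), each written 5′ to 3′ on the strand of the gene.
Alb: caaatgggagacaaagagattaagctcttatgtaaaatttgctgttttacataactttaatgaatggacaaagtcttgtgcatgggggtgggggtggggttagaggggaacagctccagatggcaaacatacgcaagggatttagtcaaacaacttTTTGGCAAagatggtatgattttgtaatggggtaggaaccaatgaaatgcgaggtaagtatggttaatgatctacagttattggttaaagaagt
Fgb: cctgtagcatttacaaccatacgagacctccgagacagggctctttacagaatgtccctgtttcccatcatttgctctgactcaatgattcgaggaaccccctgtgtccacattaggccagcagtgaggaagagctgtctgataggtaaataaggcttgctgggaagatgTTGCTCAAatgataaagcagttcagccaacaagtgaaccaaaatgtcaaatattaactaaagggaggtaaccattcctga
Hpx: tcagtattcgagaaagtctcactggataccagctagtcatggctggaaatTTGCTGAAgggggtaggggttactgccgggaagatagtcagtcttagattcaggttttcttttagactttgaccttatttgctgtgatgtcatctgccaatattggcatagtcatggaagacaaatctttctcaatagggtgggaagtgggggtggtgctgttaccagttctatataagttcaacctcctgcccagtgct
Glul: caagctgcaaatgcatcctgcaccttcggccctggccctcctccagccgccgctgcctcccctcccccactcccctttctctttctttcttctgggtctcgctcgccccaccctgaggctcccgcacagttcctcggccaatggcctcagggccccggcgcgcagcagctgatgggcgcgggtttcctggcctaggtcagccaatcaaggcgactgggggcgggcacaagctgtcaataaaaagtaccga

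In the first 3 of these promoters, the motif occurred 1 time each, starting 94, 80 and 200 bases before the annotated start in Alb, Fgb and Hpx, and it was not among the letters of the Glul window. Over the 30 promoters, 9 held it (30%: Alb, Rbp4, Hpx, Ahsg, Apoa2, Apob, Fga, Fgb and Fabp1), against 10.8% of the 27025 genes with a promoter in the table. The TATA box TATAAA, on both strands, was in 10 of the 30 (33.3%), among them the 4 P450 genes, against 14.3% of all. A match describes the letters in the window and was not tested as a site, and the motifs and the promoters shown were chosen with the earlier results known. Alb, Fgb and Hpx all come from the 9 with the C/EBP motif. Whether genes with the motif moved differently over the LSEC libraries was not tested.

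Next, LSECs were compared with Akt-liver ECs, which asks how liver ECs taken directly differ from liver ECs that were cultured with Akt. Of the 39 hepatocyte genes, 36 rose in LSECs in limma's test on log2(FPKM + 1), with an adjusted p below 0.05 over the 14964 genes tested and a log2 fold change past 1. This compares with 12.9% of all genes tested that were called higher, while 0 of the 39 were called lower, against 14.1% of all genes. Their median log2 fold change was 6.14, and 5.04 over the 25 that were above 0 in some Akt-liver EC library, against -0.084 over all genes tested. All 39 passed the filter on a mean FPKM of at least 1, most of them through their LSEC values alone, so the count says only what the levels above already show. For 14 of the 39, Akt-liver ECs were listed at 0 in all 3 libraries and no fold is given.

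Among the secreted proteins that were read in both groups, Alb had a mean of 3712 ± 3710 FPKM in LSECs (SD, n = 3) and 30.3, 0 and 0 FPKM in Akt-liver ECs. Its log2 fold change on the log2(FPKM + 1) scale was 9.72 ± 0.90 (SE, adjusted p = 1.17e-07, limma). Apoc1 was at 10.1, 0 and 0 FPKM in Akt-liver ECs and was higher in LSECs by 10.22 ± 1.37 on that scale (SE, adjusted p = 1.54e-05, limma). Both contrasts rest on cultured libraries of which 2 were listed at 0, so the size of the fold depends on the pseudocount, and that of Alb was 11.95 with a pseudocount of 0.1 and 7.39 with 10. Apob passed the test (2.89 ± 0.71, SE, adjusted p = 0.00436, limma), although the groups overlapped, since Akt-liver EC 1 with 13.7 FPKM exceeded LSEC 1 and LSEC 2. The call of Apob was lost in the fit of only the groups compared (adjusted p = 0.134, limma).

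Several other genes were read in Akt-liver EC 1 alone among the cultured liver libraries. Fgb, with 10.9, 0 and 0 FPKM in Akt-liver ECs, rose by 6.09 ± 0.71 (SE, adjusted p = 2.99e-06, limma). F2 had 2.62 FPKM in that library, Ttr 1.64, Cyp3a11 1.67 and Arg1 1.86 FPKM. All 4 were called higher in LSECs, but the size of their folds is set largely by the pseudocount. The mean FPKM of F2, Ttr and Cyp3a11, like that of Fgb and Apob, reached 1 only through LSECs. Their p-values therefore add nothing to the levels above, whereas Arg1 was also read in Akt-MACs and converted amniotic cells. For Ttr the log2 fold change was 8.29 with a pseudocount of 1, 10.71 with 0.1 and 5.40 with 10.

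Glul was read in every library and was higher in LSECs, against 343, 152 and 192 FPKM after culture (log2 fold change 2.40 ± 0.53, SE, adjusted p = 0.00175, limma). Apoa2 was also read in every cultured liver library, with 14.9, 32.1 and 55.9 FPKM, and rose by 4.96 ± 1.01 (SE, adjusted p = 0.00104, limma). Rbp4, which carries retinol in plasma, rose by 4.97 ± 1.33 (SE, adjusted p = 0.00760, limma), from 21.2, 0 and 13.6 FPKM to 168, 124 and 466 FPKM, and this call was lost without Akt-liver EC 2.

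The 3 genes that did not pass were Trf, Hp and Ass1. Trf had 518, 65.1 and 54.6 FPKM in Akt-liver ECs, all below its 3 LSEC values, with a log2 fold change of 3.18 ± 1.52 (SE, adjusted p = 0.114, limma). Haptoglobin (Hp), which binds free haemoglobin, had 81.9, 63.0 and 207 FPKM in LSECs against 86.5, 1.41 and 0 FPKM in Akt-liver ECs, and the groups overlapped (log2 fold change 4.12 ± 1.65, SE, adjusted p = 0.0608, limma). Ass1, which makes argininosuccinate from citrulline, had 52.5, 55.5 and 171 FPKM against 67.9, 7.66 and 18.4 FPKM, and the groups overlapped (log2 fold change 1.83 ± 0.96, SE, adjusted p = 0.152, limma). In each of the 3, Akt-liver EC 1 was the highest of the cultured liver libraries, and without it 37 of the 39 were called, with Hp added. A criterion adapted from the study's methods called 3 of the 39 higher, namely Glul, Apoc1 and Trf, against 1796 of the 16553 genes it covered. It took a log2 ratio of averaged FPKM past 1, here with 1 added to each average. It also took an unadjusted p below 0.05 of an unequal variance test.

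Lists of liver genes that were not members went with them. Of 49 other hepatocyte genes tested, 44 were called higher in LSECs and 0 lower, with a median log2 fold change of 4.77. Of 8 hepatocyte transcription factors tested, 5 were called higher and 1 lower. Hnf4a, a nuclear receptor that defines hepatocytes, had 16.4, 16.4 and 42.0 FPKM in LSECs and 5.68, 0 and 0 FPKM in Akt-liver ECs. Like most of the other hepatocyte genes, Hnf4a passed the filter only through its LSEC values. The calls and folds of these genes therefore say no more than their levels. The factor called lower was Prox1, which also marks lymphatic ECs, with a log2 fold change of -5.82 ± 1.45 (SE, adjusted p = 0.00455, limma). Markers of other liver cells moved in the same contrast, with 10 of 10 Kupffer cell markers, 6 of 6 red blood cell markers tested and 4 of 10 stellate cell markers called higher, but 0 of 7 cholangiocyte markers. Their part in the result was not tested.

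The 3 LSEC libraries differed among themselves in the level of the hepatocyte genes, which moved in the same direction but not by a single factor. Each of the 39 was highest in LSEC 3, and 38 had the order LSEC 3, LSEC 1, LSEC 2, the exception being Ass1, which was lowest in LSEC 1. The FPKM in LSEC 3 was 3.13 times that in LSEC 1 in the median gene, and 33 of the 39 were above 2 times. Among the 10107 genes with at least 10 FPKM in each LSEC library, the median ratio was 0.944, and 349 were above 2. Of these 10107 genes, 4217 were higher in LSEC 3 than in LSEC 1, and 7176 were higher in LSEC 1 than in LSEC 2. How many had the order of the 38 was not counted. The ratio of LSEC 3 to LSEC 1 was 2.95 in the median of 48 other hepatocyte genes, 0.862 for 14 sinusoidal EC markers, 0.589 for 10 Kupffer cell markers and 0.939 for 6 red blood cell markers. Other lists were also higher in LSEC 3, with 2.17 for 5 cholangiocyte markers (5 of 5 above 1), 2.15 for 10 hepatocyte transcription factors, 2.69 for 8 yolk sac endoderm markers, of which Rbp4, Ttr and Apob are members, and 1.32 for 9 stellate cell markers (6 of 9 above 1). In the yolk sac list, Apoa4 and Apom are also other hepatocyte genes, and Hnf4a and Foxa2 are also hepatocyte transcription factors. These lists therefore share genes and are not separate observations. With 3 libraries no correlation was computed.

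**Figure D2:**
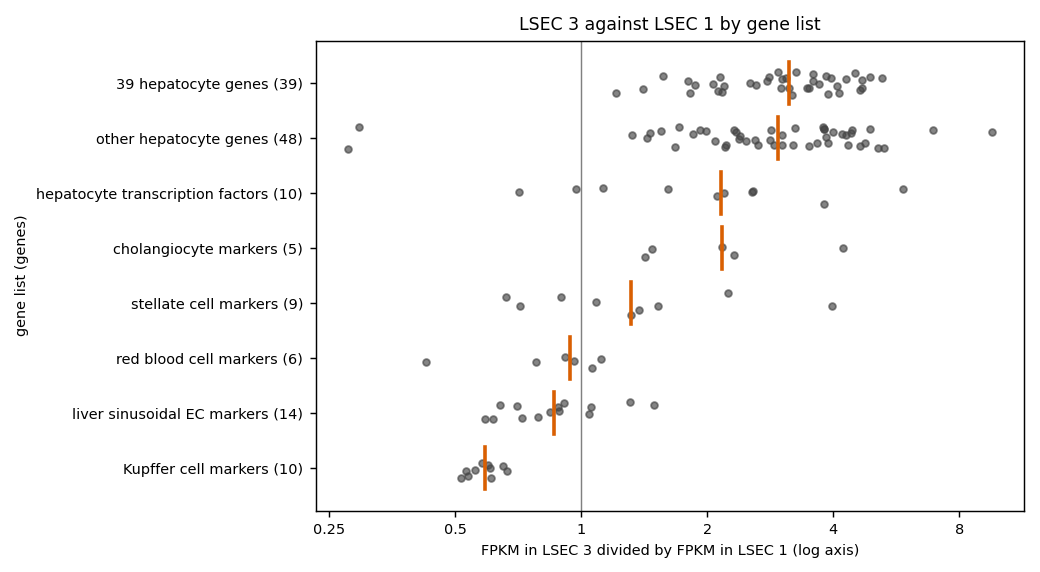
Ratio of FPKM in LSEC 3 to FPKM in LSEC 1 (log axis) for genes with at least 1 FPKM in each LSEC library, with 1 point per gene, a vertical bar at the median of each list, the number of genes in brackets and a scatter in height that carries no value. The 39 hepatocyte genes lie between 1.21 and 5.22 with a median of 3.13, whereas the 10 Kupffer cell markers lie between 0.516 and 0.663.

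By role, the ratio of LSEC 3 to LSEC 1 was highest for the secreted plasma proteins and lowest for the P450 enzymes. Its median was 3.89 for the 6 clotting proteins (3.19 to 4.64), 3.70 for the 5 protease inhibitors and inter-alpha-trypsin inhibitor chains, 3.46 for the 9 transport and binding proteins and 3.30 for the 6 apolipoproteins. It was 2.39 for the 4 enzymes of ammonia and arginine, 2.13 for the 4 gluconeogenic and amino acid enzymes and 1.98 for the 4 P450 enzymes. Ranges overlapped between most roles, since Hpd, an enzyme of tyrosine breakdown, reached 4.68 and Serpina3k, a secreted serpin, was at 2.12. Among genes next to each other, the ratios were 3.84, 3.19 and 3.94 for Fgg, Fga and Fgb, 3.00 and 3.51 for Apoa1 and Apoc3, and 4.70, 2.95 and 4.12 for Itih4, Itih3 and Itih1.

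The highest ratio was that of Hpx, the haem binding protein hemopexin, with 98.9, 74.3 and 516 FPKM in LSEC 1, 2 and 3 and a ratio of 5.22. Next came Apoa2 with 4.89 and Itih4 with 4.70. At the other end stood Glul with 1.21, Apoc1 with 1.40, Cyp1a2 with 1.57, Trf with 1.80, Cyp2c29 with 1.81 and Pck1, the entry enzyme of gluconeogenesis, with 1.87. Of these 6, Glul, Apoc1 and Trf were among the 9 genes with a mean of at least 10 FPKM in a group outside the liver, but so were Hpx and Apoa2 at the high end. The median ratio was 2.53 for those 9 and 3.32 for the other 30, with overlapping ranges.

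**Figure D3:**
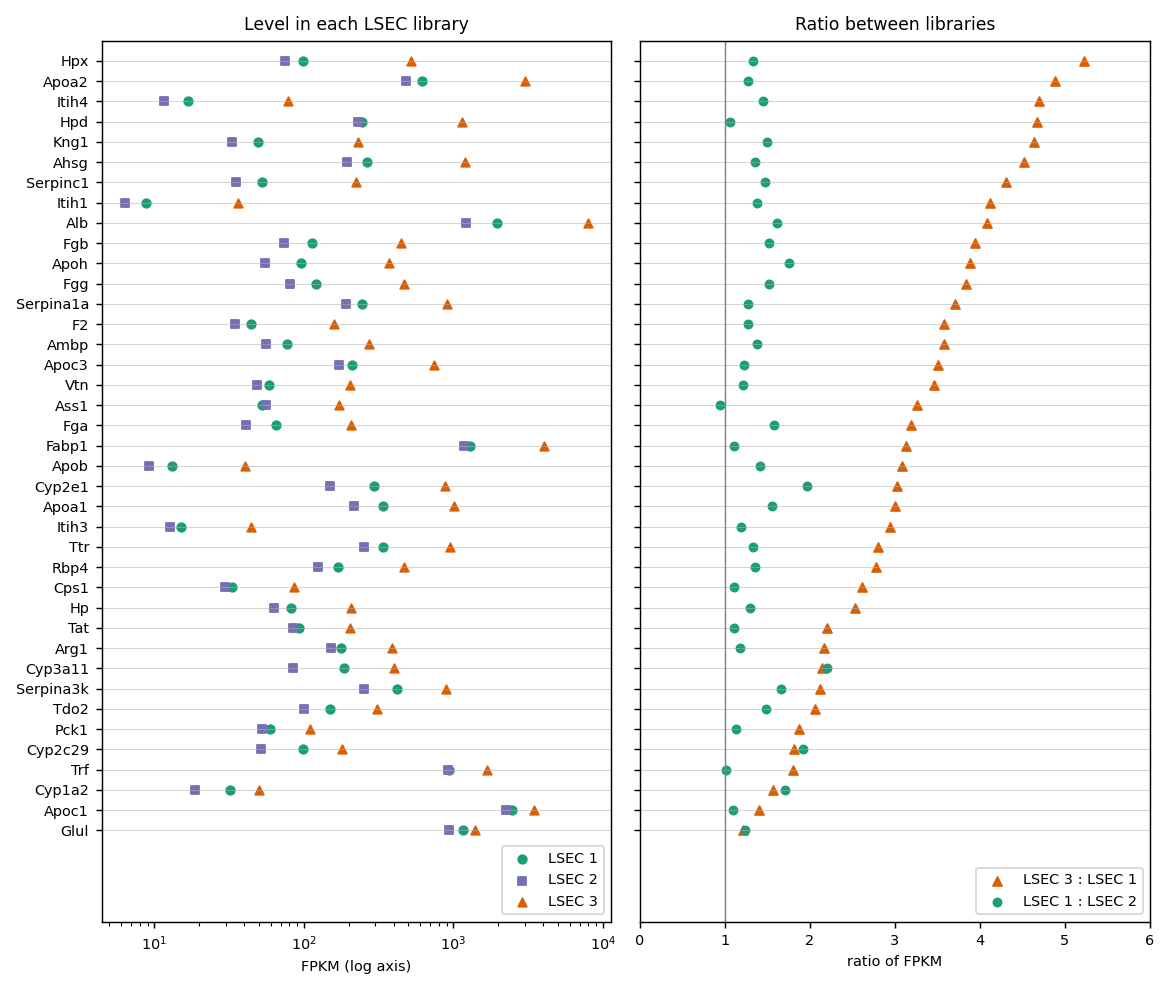
Left, FPKM (log axis) of each of the 39 genes in LSEC 1, 2 and 3. Right, the ratio of FPKM between LSEC 3 and LSEC 1 (triangles) and between LSEC 1 and LSEC 2 (circles), with genes sorted by the former and a grey line at 1. All 39 triangles lie to the right of 1, from 1.21 for Glul to 5.22 for Hpx, and the circles lie between 0.946 for Ass1 and 2.20 for Cyp3a11.

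Set against albumin in the same library, the proportions of the other genes were therefore not fixed. Fgb was at 5.56% to 6.10% of the Alb level in the 3 LSEC libraries and Ambp, the precursor of bikunin, at 3.43% to 4.58%. Glul ranged from 17.5% in LSEC 3 to 77.2% in LSEC 2, Trf from 20.9% to 75.6% and Apoc1 from 43.0% to 185%.

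The zonal genes were examined in the same libraries. Between LSEC 1 and LSEC 2, the pericentral P450 genes differed more than the periportal enzymes. Cyp2e1, which oxidizes ethanol, had 293 FPKM in LSEC 1 and 149 in LSEC 2, a ratio of 1.97, and Cyp2c29 and Cyp1a2 had ratios of 1.92 and 1.71. Cyp3a11, which was not on the zonal lists, had the highest ratio of the 39 with 2.20. The periportal members Cps1, Pck1, Arg1 and Ass1 had ratios of 1.11, 1.13, 1.17 and 0.946, and the pericentral Glul had 1.23. Over the whole lists, the median ratio was 1.77 for 11 pericentral genes and 1.11 for 15 periportal genes with at least 1 FPKM in each LSEC library, against 1.12 over the 10107 genes. Cyp2c37, a pericentral P450, was highest with 3.58. The ratio of LSEC 3 to LSEC 1 had medians of 2.48 and 2.39 for the same lists.

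**Figure D4:**
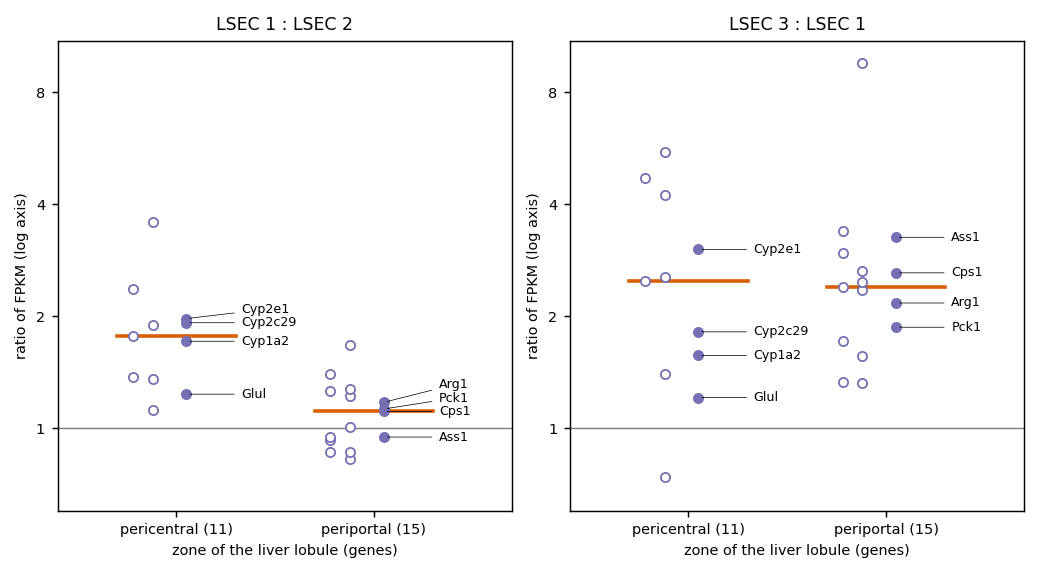
Ratio of FPKM between LSEC 1 and LSEC 2 (left) and between LSEC 3 and LSEC 1 (right) on a log axis for 11 pericentral and 15 periportal genes, with members filled and named and a bar at the median of each list. In the left panel the medians are 1.77 and 1.11, and in the right panel they are 2.48 and 2.39.

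The summed FPKM of the 15 pericentral genes was 2.05, 1.69 and 1.83 times that of the 15 periportal genes in LSEC 1, 2 and 3 (mean 1.86 ± 0.18, SD, n = 3). Glul and Oat, which are read in other groups too, held much of the pericentral sum. Without genes with a mean of at least 10 FPKM in a group outside the liver, the ratio was 0.931, 0.624 and 1.26, so it moved across 1 and its order over the libraries changed. Lgr5 was listed at 0 in all 3 LSEC libraries, and Rhbg and Cyp7a1, the rate-limiting enzyme of bile acid synthesis, were above 0 in LSEC 3 alone, with 2.56 and 8.75 FPKM.

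Outside LSECs, hepatocyte genes were read in 2 ways, as traces of many genes in a single library and as high levels of a few genes in many libraries. Akt-liver EC 1 was the library of the former kind. There 23 of the 39 genes were above 0, against 9 and 10 in Akt-liver EC 2 and 3 and 5 to 13 in the 18 libraries from lung or amniotic cells. Over all genes, 14793 were above 0 in Akt-liver EC 1, against 13422 and 13514 in Akt-liver EC 2 and 3. The proportions of the members in Akt-liver EC 1 differed from those in LSECs. Ambp was at 32.8 FPKM, which is 108% of the Alb level of 30.3, against at most 4.58% in LSECs. Hp was at 285% of Alb and Apob at 45.0%, against at most 5.21% and 0.760%, whereas Ttr was at 5.41% and Serpina1a at 2.37%, against at least 11.9% and 11.3%.

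Akt-liver EC 1 also differed from the other cultured liver libraries in markers of other cells. All 7 cholangiocyte markers were above 0, with a sum of 3205 FPKM against 43.7 and 25.2, and Krt7 and Epcam, epithelial genes listed at 0 in Akt-liver EC 2 and 3, were at 269 and 44.7 FPKM. Of 10 Kupffer cell markers 9 were above 0, with a sum of 587 FPKM against 0.59 and 0. Of 13 hepatocyte transcription factors 11 were above 0, among them Hnf4a with 5.68 FPKM, and the fetal plasma protein Afp was at 11.3 FPKM. The 5 mesothelial markers Msln, Upk3b, Upk1b, Wt1 and Lrrn4, a list chosen after the values were seen, summed to 313 FPKM, against 17.3 and 0.98. Red blood cell markers were at 0.76 FPKM in sum. Akt-LEC 1 stood apart from the other lung libraries in the same lists, with 6139 FPKM of cholangiocyte markers (23.1 and 103 in Akt-LEC 2 and 3), 528 FPKM of Kupffer cell markers (2.09 and 2.13) and 87.5 FPKM of mesothelial markers (0 and 0). Their part in the levels of hepatocyte genes was not tested.

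Akt-liver ECs were next compared with Akt-LECs, which asks whether cultured ECs of liver and lung differ. In limma, 0 of the 39 genes were called higher or lower, against 0.0134% of all genes called higher and 0% called lower. Of the 39, 1 gene, Itih3, had an unadjusted p below 0.05 with a log2 fold change past 1. So did 250 of all 14964 genes tested. Itih3 was at 2.22, 2.58 and 4.80 FPKM in Akt-liver ECs and 0, 2.86 and 0.52 FPKM in Akt-LECs, so the groups overlapped (log2 fold change 1.17 ± 0.45, SE, adjusted p = 1, limma). The summed share of the 39 genes was 0.0171% ± 0.0112 in Akt-LECs (SD, n = 3), and the exact permutation test of cultured liver against cultured lung ECs gave p = 0.6. The adapted criterion left out genes at 0 in all libraries compared and so covered 26 of the 39. It called 0 of these, against 60 higher and 26 lower of the 15812 genes it covered. Same-numbered libraries of these groups deviated together in 2 of 3 pairs (correlations of 0.571, 0.366 and -0.0499 over genes), and with the replicate number as a block 0 of the 39 were called too. The file headers of Akt-liver EC 1 and Akt-LEC 1 hold consecutive numbers, and whether these libraries were prepared together is not given in the sources used here.

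Of the 39, 9 had a mean of at least 10 FPKM in a group outside the liver, namely Rbp4, Trf, Hp, Hpx, Apoa2, Apoc1, Ass1, Arg1 and Glul. By contrast, 24 of the 39 stayed below 10 FPKM in every library outside LSECs, and 10 (Ahsg, Vtn, Apoc3, Fgg, Cps1, Tat, Hpd, Cyp2e1, Cyp2c29 and Fabp1) were listed at 0 in all 21.

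Trf was the gene read most strongly outside the liver. It had 124, 246 and 5632 FPKM in MAC 1, 2 and 3 and 606, 235 and 2681 FPKM in Akt-MACs, so that 2 amniotic libraries exceeded every LSEC library. In RACVECs it had 11.1, 0.60 and 1.95 FPKM, in Akt-RACVECs 5.24, 0 and 0.72 FPKM, and in Sox17-RACVECs it was listed at 0 in all 3. Trf fell in RACVECs against MACs, with a log2 fold change of -7.18 ± 1.52 (SE, adjusted p = 0.0133, limma) and no overlap. Because MAC 3 held most of it, Trf made up the greater part of the summed share of 0.359% in that library, against 0.0203% and 0.0881% in MAC 1 and 2. Trf was also at 264 FPKM in Akt-LEC 1 against 13.1 and 0.99 FPKM in the other lung libraries.

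Ass1 and Hp were also read in MACs and Akt-MACs, and Arg1 in Akt-MACs and converted amniotic cells. Ass1 had 86.5, 24.2 and 828 FPKM in MACs and 196, 257 and 84.6 FPKM in Akt-MACs, against 4.45 to 39.9 FPKM in the 9 RACVEC, Akt-RACVEC and Sox17-RACVEC libraries. Hp had 9.41, 785 and 6.48 FPKM in MACs and 32.7, 23.6 and 307 FPKM in Akt-MACs. Arg1, the arginase that ends the urea cycle, had 0, 0 and 0.97 FPKM in MACs and 33.3, 27.9 and 11.2 FPKM in RACVECs. Glul was read in all 21 libraries outside LSECs, from 56.9 FPKM to 1060 FPKM in Akt-MAC 2, the latter above its level in LSEC 2.

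**Figure D5:**
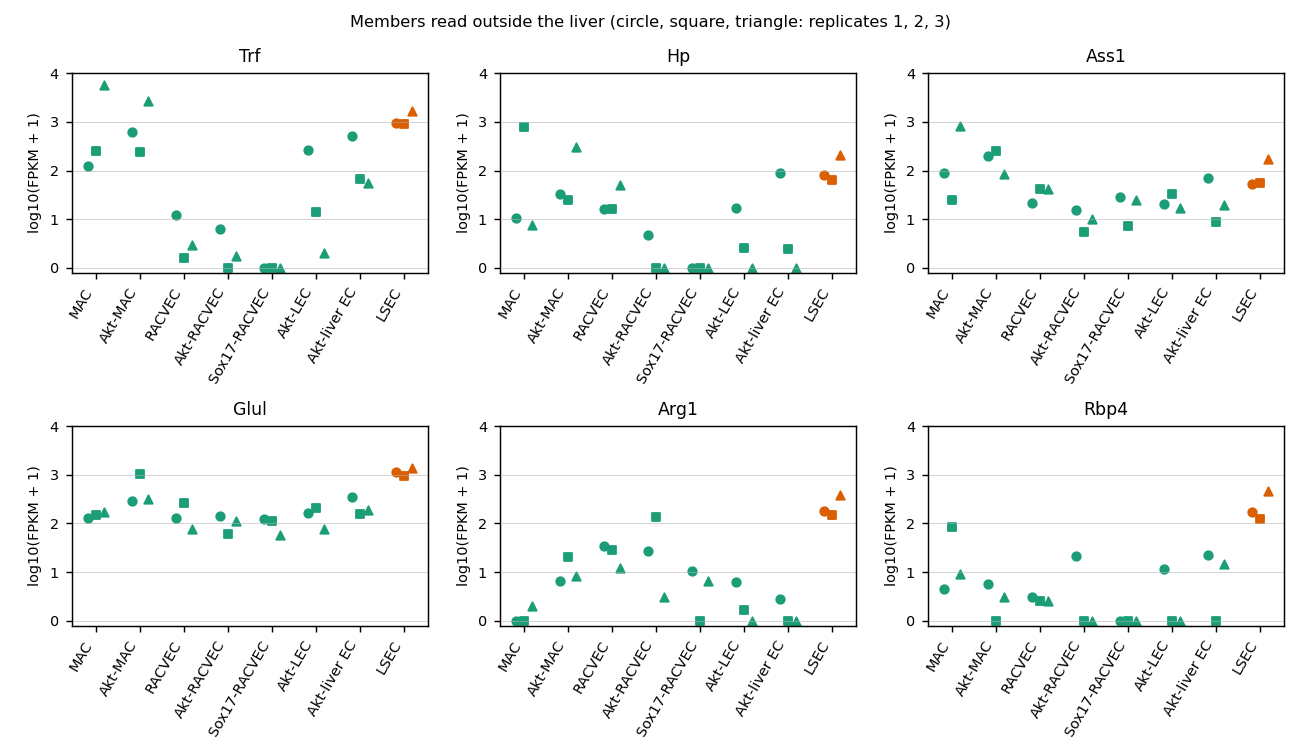
Log10(FPKM + 1) of Trf, Hp, Ass1, Glul, Arg1 and Rbp4 in the 8 groups, with 1 point per library (circle, square and triangle for replicates 1, 2 and 3) and LSECs in orange. Trf is higher in MAC 3 (5632 FPKM) and Akt-MAC 3 (2681 FPKM) than in any LSEC library, and Glul is above 0 in all 24 libraries.

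Against the mean of the cultured ECs, 1 of the 39 genes was called higher in MACs, against 7.51% of all genes tested, and 1 was called lower, against 7.3%. The gene that rose was Ass1, with a log2 fold change of 2.44 ± 0.83 (SE, adjusted p = 0.0462, limma), although the groups overlapped. The gene that fell was Itih3, listed at 0 in all 3 MAC libraries, with a mean of 2.16 FPKM in the cultured ECs (adjusted p = 0.0150, limma). Here too the groups overlapped, since Akt-LEC 1 was listed at 0, and no cultured EC library exceeded 4.80 FPKM. Trf was not called, with 3.50 ± 1.32 (SE, adjusted p = 0.0662, limma), but passed without Akt-liver EC 1 (adjusted p = 0.0423) and without Akt-LEC 1 (adjusted p = 0.0125). With 1 of the 9 libraries left out, the Ass1 call was kept without MAC 2 or Akt-liver EC 1 and lost without each of the other 7, and the Itih3 call was lost without MAC 1.

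In RACVECs against MACs, 1 of the 39 was called higher, against 1.36% of all genes, and 1 lower, against 1.35%. Trf was the latter. Arg1 was the former, with a log2 fold change of 4.19 ± 1.08 (SE, adjusted p = 0.0407, limma) and no overlap, but this call was lost when any of the 6 libraries was left out. The Trf call was lost without MAC 3, RACVEC 2 or RACVEC 3. The exact permutation test of the summed share of the 39 genes in MACs against RACVECs gave p = 0.2.

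In the remaining comparisons 0 of the 39 were called by limma. For Akt-MACs against MACs this was against 2.59% of all genes called higher and 0.214% lower. At an unadjusted p below 0.05 (limma) with a log2 fold change past 1 or -1, 2 of the 39 were higher (Arg1 and Glul). So were 1128 of all 14964 genes tested. For Akt-RACVECs against RACVECs it was against 0.221% higher and 0.0401% lower. At the same unadjusted threshold 1 of the 39 was lower, as were 784 of all 14964 genes tested. The member was Hp, with 3.63, 0 and 0 FPKM against 15.2, 15.0 and 48.9 FPKM in RACVECs. For Sox17-RACVECs against RACVECs it was against 0% higher and 0.00668% lower. At the unadjusted threshold 2 of the 39 were lower, as were 506 of all 14964 genes tested. The 2 members were Hp, listed at 0 in all 3 Sox17-RACVEC libraries (adjusted p = 0.579, limma), and Arg1, with 9.42, 0 and 5.62 FPKM (adjusted p = 0.700, limma). The exact permutation test of the summed share in Akt-MACs against MACs gave p = 0.9. MACs enter 3 of these comparisons and RACVECs enter 3, so the comparisons share libraries.

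The amniotic libraries with high values of hepatocyte genes were not alike in other genes. In MAC 2, Hp was at 785 FPKM together with Rbp4 at 84.0, Apoc1 at 140, Itih4 at 23.0 and Pck1 at 21.1 FPKM, and in MAC 1 and MAC 3 these 5 genes were between 0 and 9.41 FPKM. Hp, Rbp4 and Pck1 are known from fat cells as well as from liver. The sum of 6 adipocyte markers (Adipoq, Plin1, Plin4, Cidec, Lep and Lipe), a list chosen after the values were seen, was 2053 FPKM in MAC 2, with Lep at 0, against 146 and 25.6 FPKM in MAC 1 and 3 and 26.6 to 41.7 FPKM in Akt-MACs.

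In MAC 3, where Trf and Ass1 were highest, 6 Schwann cell markers (Sox10, Mbp, S100b, Erbb3, Foxd3 and Cdh19, chosen in the same way) summed to 1521 FPKM, against 130.4 and 17.5 FPKM in MAC 1 and 2. In Akt-MACs the sum was 2655, 771 and 141 FPKM, and Akt-MAC 3 was the Akt-MAC library with the most Trf. Its sum was mostly Mbp with 137 FPKM, and no other marker of the list exceeded 1.85 FPKM there. In MAC 3, Mbp was at 8.30 FPKM, so the list did not move as a whole. Akt-MAC 3 held 5608 FPKM of the 5 mesothelial markers, against 15.6 and 197 FPKM in the other Akt-MACs. The Kupffer cell markers, most of which other macrophages share, summed to 27156 FPKM in Akt-MAC 3 and 9962 FPKM in Akt-MAC 2, which had the most Glul. In MACs these macrophage genes were below 1 FPKM in sum. The yolk sac endoderm markers, of which Rbp4, Ttr and Apob are members, summed to 7.24, 84.2 and 18.1 FPKM in MACs and to 6.48, 43.4 and 441 FPKM in Akt-MACs. In Akt-MAC 3 most of that sum was Gata4 with 340 FPKM and Foxa2 with 78.8 FPKM. The part of any of these markers in the levels of hepatocyte genes was not tested.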

How the data were processed

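RNA of 24 libraries in 8 groups of 3, mapped to samples by the labels, was sequenced by the authors as paired 51 bp reads. Reads were aligned to mm9 by TopHat, and the authors deposited FPKM from Cufflinks, with upper-quartile normalization and bias correction, as 1 value per RefSeq transcript. Versions are not given in the sources used here. Depth is unknown, so the precision is that between libraries. The 27583 transcripts were summed per gene symbol (26934 matched, 649 kept under their own names).

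Groups were compared with limma 3.58.1 (R 4.3.3) on log2(FPKM + 1), by two-sided tests in 1 fit over 8 groups, with variances that follow the mean and Benjamini-Hochberg adjustment over the 14964 genes whose mean FPKM reached 1. Calls needed an adjusted p below 0.05 together with a log2 fold change above 1 or below -1. The fit was tested on simulated data with normal noise, in which the changed genes were well above 0 on average. This does not cover genes listed at 0 in most libraries, as many of the 39 were. Shares were compared with exact permutation tests (scipy 1.17.1). MAC replicates are separate cultures, but the labels do not say how the other replicates arose, and p-values measure only the spread between them. All 39 genes, genes of the marker lists and called members could be named. A few genes of the marker lists are not reported here and were left out of the lists' counts. The members and lists were chosen with earlier results of these data known. Alternatives were other pseudocounts, filters, scaling, a fit of the groups compared, a replicate block, the study's criterion with 1 added to averaged FPKM and leaving out each library.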

Additional observations from a re-analysis of the deposited data

How the results depend on the processing

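The direction of each of the 39 genes in LSECs against Akt-liver ECs was kept under every alternative run. The 36 calls became 30 of 33 tested with a mean FPKM of at least 10, 34 with only the groups compared (without Ambp and Apob), 32 of the same 36 with the replicate block (without Ambp, Apob, Hpx and Fgb), 35 to 37 with 1 library left out and 3 by the adapted criterion. Same-numbered libraries did not deviate together in all pairs (correlations from -0.0786 to 0.181 for these groups, and up to 0.571 for Akt-liver EC 1 with Akt-LEC 1), so the numbers were not taken to pair the samples. With the replicate block, 0 members were called in every other comparison.

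For MACs against cultured ECs, 0 members were called higher with a pseudocount of 0.1, no filter, only the groups compared, the block or the criterion, and 0 to 3 with a library left out. In the lower direction, 0 were called with a pseudocount of 10, a mean of at least 10, only the groups compared or the block, 2 by the criterion, and 0 to 1 with a library left out. For RACVECs against MACs, 0 were called higher with a pseudocount of 0.1 or 10, the block or any library left out, 1 (Serpinc1 in place of Arg1) with only the groups compared or by the criterion, and 0 lower with only the groups compared, the block or the criterion, with 0 to 1 for libraries left out. The criterion called 1 lower each in Akt-RACVECs (Ass1) and Sox17-RACVECs (Rbp4) against RACVECs. Of all genes it covered, 273 of 15118 and 101 of 14772 were lower. It left out genes at 0 in all libraries compared, so it covered 15 and 14 of the 39. For RACVECs against MACs it covered 20 of the 39 and called 214 of 15810 genes higher and 221 lower. For MACs against cultured ECs it covered 29 and called 377 of 16509 genes higher and 1103 lower. The fit of only the groups compared called 1 lower (Rbp4) in Sox17-RACVECs against RACVECs, against 8 of all 14964 genes.

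The mean pericentral to periportal ratio was 4.07 over members alone, 0.937 without genes read outside the liver and 1.76 to 1.94 with a library left out, and the difference of mean log2(FPKM + 1) was -1.06, so its direction depends on the genes and the scale. The mean share in LSECs was 0.525% to 1.04% with 1 library left out, the lowest without LSEC 3. Over all genes, RACVECs against MACs gave 203 higher and 202 lower calls, 30 and 11 with only the groups compared, and 0 with the block. The cause of these differences was not tested.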
